A study of Mus musculus with 28 samples.

Results

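The genes described here are 10 that the transcription factor NF-kB is known to switch on in inflammatory cells: the cytokines Tnf and Il6, the neutrophil-attracting chemokines Cxcl1 and Cxcl2, the macrophage growth factor Csf1, the adhesion molecule Icam1, and the feedback genes Tnfaip3, Nfkbia, Nfkbiz and Nfkb1. They were chosen by name, and each was measured by the probe set that the platform annotation assigns to that symbol alone (the brightest one where there were several). Of 10 genes, 9 had such a probe set among the 19938 genes with one, and 8 were bright enough to be tested among 13512 tested genes. Nfkb1 was not analysed here, since no probe set carries its symbol alone in the platform table used. Il6 lay below the background floor in every array, at 3.20 to 4.11 with a median of 3.59 on the log2 scale. The floor was set at 6.32, a level under which 95% of the 1210 probe sets for odorant and vomeronasal receptors had their means.

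The study measured messenger RNA on Affymetrix arrays in resident peritoneal macrophages, which live in the abdominal cavity and were washed out without thioglycollate, cultured overnight in serum-free medium and freed of non-adherent cells. All mice had a C57BL/6 background. The 7 groups of 4 arrays were uninjected mice with a knockout of ATF7 (KO), wild-type mice injected intravenously with LPS from E. coli O111:B4, with PGN, with imiquimod (IMQ) or with β-glucan (BG), wild-type mice injected with PBS, and uninjected wild-type mice (WT). Injections were given at 7 to 8 weeks of age, and the labels put collection at 3 weeks after injection, while the protocol gives 3 to 4 weeks and an age of 10 to 12 weeks at collection. The age of the uninjected mice and the part of the gene removed in the knockout are not stated in the labels, which also name no cell type to which the knockout is limited. LPS and PGN are bacterial wall components, imiquimod activates an endosomal Toll-like receptor, and β-glucan is a fungal wall polysaccharide that cells sense through C-type lectin receptors. ATF7 is a transcription factor of the ATF/CREB family, and the series title links it to LPS-induced epigenetic change and innate immune memory. The 4 arrays of a group are described as biologically independent experiments.

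In resting cells NF-kB dimers are held in the cytoplasm by IkB proteins. Toll-like receptor or TNF receptor signals activate the IKK kinases, IkB is destroyed, and the dimers enter the nucleus and switch on cytokine, chemokine and adhesion genes. They also switch on their own brakes: Nfkbia encodes IkBα, which takes NF-kB back out of the nucleus, and Tnfaip3 encodes A20, a ubiquitin-editing enzyme that dampens signalling upstream of the kinases. Nfkbiz encodes the nuclear protein IkBζ, a cofactor for secondary response genes such as Il6 rather than a simple brake.

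The proximal promoters of 4 of these genes are printed because they hold GGGNNTTTCC, one 10-base form of the NF-kB motif, in which N is any base. Other forms of the motif were not searched. Sequences are from RefSeq (GRCm38.p6), the 250 bases before the annotated start site, 5′ to 3′ on the gene's own strand, in lower case. Capitals mark matches on either strand to GGGNNTTTCC or to TGACGT, the core of the ATF/CREB motif. Cxcl1 lies on the plus strand (chr5:90890995-90891244), and so does Cxcl2 (chr5:90903649-90903898). Nfkbia (chr12:55492648-55492897) and the first of 2 listed Tnfaip3 promoters (chr10:19015411-19015660) lie on the minus strand.
Cxcl1: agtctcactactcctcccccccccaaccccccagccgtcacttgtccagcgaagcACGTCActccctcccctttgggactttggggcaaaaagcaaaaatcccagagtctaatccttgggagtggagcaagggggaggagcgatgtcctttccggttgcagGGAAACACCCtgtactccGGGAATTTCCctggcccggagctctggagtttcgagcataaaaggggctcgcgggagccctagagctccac
Cxcl2: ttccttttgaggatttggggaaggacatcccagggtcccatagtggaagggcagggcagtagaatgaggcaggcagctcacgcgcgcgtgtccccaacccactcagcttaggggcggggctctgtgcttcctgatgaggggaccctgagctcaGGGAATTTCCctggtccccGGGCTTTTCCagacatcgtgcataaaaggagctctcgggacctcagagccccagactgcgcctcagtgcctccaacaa
Nfkbia: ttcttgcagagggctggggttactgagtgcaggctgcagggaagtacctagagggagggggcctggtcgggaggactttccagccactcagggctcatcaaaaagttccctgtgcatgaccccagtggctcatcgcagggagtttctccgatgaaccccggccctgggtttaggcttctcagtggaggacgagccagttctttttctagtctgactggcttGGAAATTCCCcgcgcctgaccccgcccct
Tnfaip3: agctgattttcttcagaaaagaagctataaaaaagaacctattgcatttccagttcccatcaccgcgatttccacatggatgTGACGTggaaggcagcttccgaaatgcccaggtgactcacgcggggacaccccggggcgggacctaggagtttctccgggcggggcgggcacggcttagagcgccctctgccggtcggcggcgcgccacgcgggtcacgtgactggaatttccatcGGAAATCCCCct

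Cxcl1 and Cxcl2 share the same 10 letters, GGGAATTTCC, at positions -71 to -62 in Cxcl1 and -97 to -88 in Cxcl2, counted back from -1 beside the start site. Nfkbia holds the reverse complement of those letters, GGAAATTCCC, at -29 to -20. Each chemokine promoter has a second match, at -89 to -80 in Cxcl1 and at -78 to -69 in Cxcl2. Tnfaip3 has GGAAATCCCC at -12 to -3. Il6 and Csf1 also hold the motif, so that 6 of the 8 members with a listed promoter match it, against 1.65% of the 27025 genes in the table. Tnf and Icam1 have no match in this window, which says only that these letters are not in it. TGACGT or its reverse complement ACGTCA stands in Il6, Cxcl1 and Tnfaip3, 3 of 8, against 7.29% of those genes. Each share counts a gene that has a match in any of its listed promoters. The motifs were chosen after the promoters had been seen, and a match describes letters, not a bound site. The positions of the matches do not overlap each other.

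Signals are the authors' RMA values on the log2 scale, on which a difference of 1 is a doubling. The array medians ran from 107 to 115 in linear signal, and arrays of one group correlated at 0.989 to 0.997 across genes. The Atf7 probe set 10433032 averaged 7.08 ± 0.10 in KO macrophages and 9.97 ± 0.11 in WT macrophages (SD, n = 4 each), 7.40-fold lower in KO, and a second Atf7 probe set, 10433034, averaged 10.28 ± 0.04 in KO and 10.73 ± 0.08 in WT. For both, the exact two-sided permutation test gave p = 0.0286, the smallest that 4 against 4 arrays allow. Of 18 markers of large peritoneal macrophages, 17 were above background, with a mean level of 10.28 to 10.98 over all 28 arrays, and Selp was not analysed here. The WT arrays were spread on the second principal component (19.7% of the variance), with arrays 1 and 2 at -19.56 and -17.55. WT arrays 3 and 4 lay at -7.74 and -6.81 there, and no fit left out WT arrays 1 and 2 together. The PBS arrays 3 and 4 stood apart over all genes, at 12.88 and 11.4 on the fourth principal component (7.3% of the variance), against 5.11 for the next array. For all 8 tested members both of them lay below PBS arrays 1 and 2, so the calls against PBS below, of the members and of the listed genes, are also read without those 2 arrays.

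In macrophages of uninjected ATF7 knockout mice, 4 of the 8 tested genes rose against WT: the cytokine Tnf, the adhesion molecule Icam1 and the brakes Tnfaip3 and Nfkbia. None fell. As background, 17.7% of the 13512 tested genes were higher and 10.7% lower in KO macrophages at an adjusted p under 0.05 (limma, Benjamini-Hochberg over all genes). The median log2 difference of the 8 was 0.37, against 0.005 over all tested genes.

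Tnf, a central inflammatory cytokine of macrophages, read 10.62, 10.75, 10.51 and 10.86 in KO macrophages, against 9.62, 9.64, 9.84 and 10.04 in WT macrophages. Every KO array lay above every WT array. The difference was 0.90 ± 0.12 (SE), or 1.86-fold, with an adjusted p of 3.09e-06, the strongest among the members. Tnfaip3 read 9.41, 9.45, 9.41 and 9.42 in KO, against 8.91, 8.99, 9.09 and 9.15 in WT. The KO arrays were nearly equal, with an SD of 0.019, and lay above every WT array. The difference was 0.39 ± 0.088, or 1.31-fold (adjusted p = 0.00127). Nfkbia read 11.24, 11.08, 11.26 and 11.39 in KO, against 10.91, 10.86, 10.86 and 10.92 in WT, a difference of 0.36 ± 0.097 (adjusted p = 0.00647). Its WT arrays were the tightest of all its groups, with an SD of 0.033, and lay below every KO array. Icam1, which holds leukocytes to other cells, read 10.72, 10.75, 10.78 and 11.09 in KO, against 10.39, 10.35, 10.43 and 10.64 in WT. These groups did not overlap, and the difference of 0.38 ± 0.11 had an adjusted p of 0.0122, but KO array 4 stood well above the other 3. Without it the difference was 0.30 and the adjusted p 0.0597, and with array weights the adjusted p was 0.0915.

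The neutrophil chemokine Cxcl2 read 10.67, 10.81, 10.50 and 10.55 in KO macrophages, against 10.04, 10.20, 10.27 and 10.50 in WT macrophages. The lowest KO array and the highest WT array nearly met, and the difference of 0.38 ± 0.15 missed the threshold (adjusted p = 0.0548). It passed in some other settings, for example at 0.0242 with arrays centred on their medians. Its neighbour and close relative Cxcl1 averaged 7.82 ± 0.10 in KO and 7.67 ± 0.17 in WT, overlapping groups (adjusted p = 0.230). Csf1, which keeps macrophages alive, was the one member whose KO arrays all lay below its WT arrays. It read 7.65, 7.54, 7.53 and 7.61 in KO, against 7.74, 7.80, 7.65 and 7.86 in WT. The groups touched without overlapping, and the difference of -0.18 ± 0.083 did not pass (adjusted p = 0.111). Nfkbiz averaged 8.81 ± 0.17 in KO and 8.81 ± 0.05 in WT, and the 95% interval of its difference ran from -0.20 to 0.19.

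**Figure D1:**
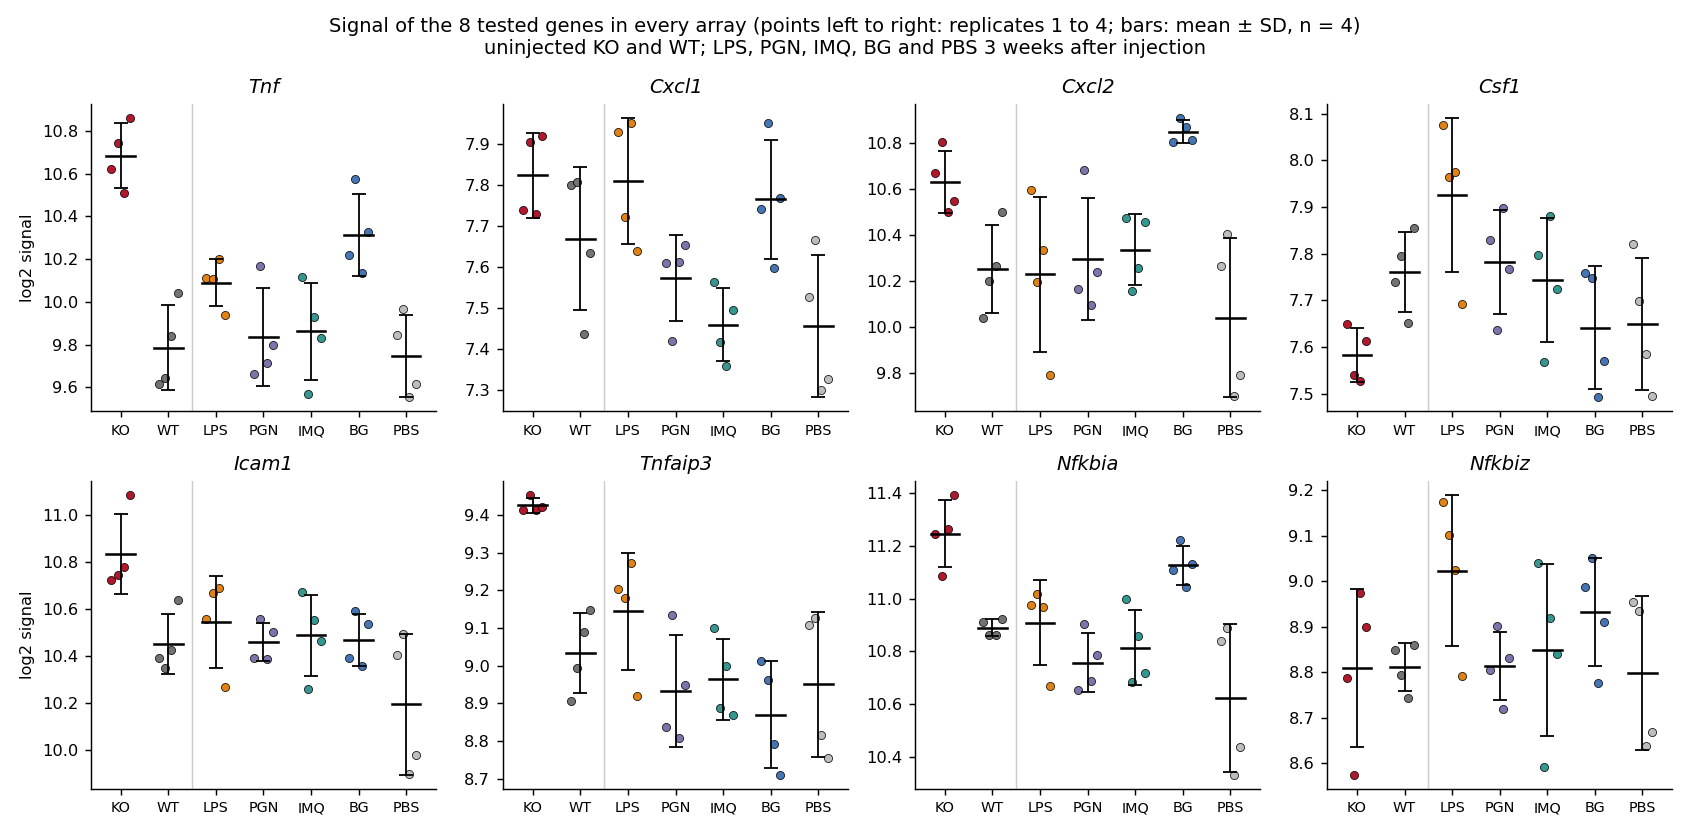
Log2 RMA signal (vertical axis) of the 8 tested genes in each of the 28 arrays, with 1 panel per gene, the groups along the horizontal axis, points for arrays and bars for the mean ± SD (n = 4). The 4 KO arrays of Tnf, at 10.51 to 10.86, lie above all 4 WT arrays, and the 4 BG arrays of Cxcl2, at 10.80 to 10.91, lie above all 4 PBS arrays.

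Markers of other cells moved with this comparison. Of 20 B cell markers 16 were above background, 13 of them fell in KO, and their summed linear signal ran from 6737 to 8203 in KO arrays and from 8837 to 12610 in WT arrays. In bulk RNA, fewer cells of a type and less RNA per cell cannot be told apart. With the mean level of those markers as a covariate the KO difference of Tnf was 1.11 (adjusted p = 0.000784), and those of Nfkbia and Icam1 also passed, while Tnfaip3 kept a difference of 0.41 with an adjusted p of 0.0848. The mean marker level was at most 8.24 in KO arrays and at least 8.28 in WT arrays, without overlap. This covariate fit therefore cannot separate the marker level from the knockout. Of 12 neutrophil markers 7 were at background: S100a9, Elane, Ltf, Ngp, Cxcr2, Retnlg and Ly6g. The 5 above it were S100a8, Mmp9, Mpo, Camp and Csf3r. Of those 5, the protease gene Mmp9 averaged 10.55 ± 0.45 in KO and 9.75 ± 0.32 in WT (adjusted p = 0.00180), and the receptor gene Csf3r fell by 0.23 (adjusted p = 0.0235). Among the few measured markers of other leukocytes, the eosinophil marker Il5ra fell by 1.18 (adjusted p = 5.95e-05), the mast cell marker Hdc by 0.56 (adjusted p = 0.00211) and the T and NK cell marker Cd2 by 0.49 (adjusted p = 0.00139) in KO. Their part in the member differences was not tested.

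After β-glucan, 4 of the 8 rose 3 weeks later: Cxcl2, Tnf, Nfkbia and Cxcl1. None fell. Over all tested genes, 20.2% were higher and 21.4% lower, the most called genes after any of the injections. The median difference of the 8 was 0.29, against 0.019 over all tested genes. Icam1 missed the threshold at 0.28 ± 0.11 (adjusted p = 0.0532).

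Cxcl2 read 10.80, 10.91, 10.87 and 10.82 in BG macrophages, against 10.27, 10.41, 9.70 and 9.79 in PBS macrophages. The BG arrays were the tightest of any group for this gene, with an SD of 0.05, and all of them lay above PBS. The difference was 0.81 ± 0.15, or 1.75-fold, with an adjusted p of 9.80e-05, and 0.51 with 0.0135 when PBS arrays 3 and 4 were left out. Tnf read 10.22, 10.58, 10.13 and 10.33 in BG, against 9.84, 9.97, 9.56 and 9.61 in PBS. Again the groups did not overlap, with a difference of 0.57 ± 0.12, or 1.48-fold (adjusted p = 0.000497), and 0.41 with 0.0281 in the fit without PBS arrays 3 and 4. Nfkbia read 11.11, 11.22, 11.04 and 11.13 in BG, against 10.84, 10.89, 10.33 and 10.44 in PBS. Its difference of 0.50 ± 0.097 (adjusted p = 0.000178) was carried by groups that stayed apart, and was 0.26 with 0.0260 when PBS arrays 3 and 4 were left out. Cxcl1 read 7.74, 7.95, 7.60 and 7.77 in BG, against 7.53, 7.67, 7.30 and 7.33 in PBS, which overlap. Its difference of 0.31 ± 0.092 passed (adjusted p = 0.00867), but was 0.17 with 0.224 in the fit without PBS arrays 3 and 4.

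Among the other feedback genes, Tnfaip3 read 9.01, 8.96, 8.79 and 8.71 in BG, against 9.11, 9.12, 8.82 and 8.75 in PBS, overlapping groups with a difference of -0.081 ± 0.088 (adjusted p = 0.477). In the fit without PBS arrays 3 and 4 it was lower in BG, at -0.25 with an adjusted p of 0.0474. Nfkbiz averaged 8.93 ± 0.12 in BG and 8.80 ± 0.17 in PBS, with an interval of -0.059 to 0.33. Csf1 averaged 7.64 ± 0.13 in BG and 7.65 ± 0.14 in PBS, with an interval of -0.18 to 0.16. B cell markers moved here too: 6 of 16 fell and 1 rose, and their summed linear signal ran from 8173 to 8823 in BG arrays and from 10386 to 12121 in PBS arrays. With their mean level as a covariate the differences of Cxcl2, Tnf, Nfkbia and Cxcl1 passed. That mean level ran from 8.22 to 8.37 in BG arrays and from 8.52 to 8.89 in PBS arrays, without overlap. The covariate fit therefore cannot separate the marker level from the injection.

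After LPS, 3 of the 8 were called higher than PBS: Cxcl1, Csf1 and Icam1. Over all tested genes 4.36% were higher and 5.52% lower. All 8 differences were positive, at 0.19 to 0.35 with a median of 0.28 against -0.013 over all tested genes, but for every gene the LPS and PBS arrays overlapped. The comparisons of LPS, PGN, imiquimod and β-glucan all share the PBS arrays.

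Cxcl1 read 7.93, 7.72, 7.95 and 7.64 in LPS macrophages, against 7.53, 7.67, 7.30 and 7.33 in PBS macrophages, a difference of 0.35 ± 0.092 (adjusted p = 0.0238). The lowest LPS array lay just under the second PBS array. Csf1 read 8.08, 7.96, 7.97 and 7.69 in LPS, against 7.82, 7.70, 7.58 and 7.50 in PBS, a difference of 0.28 ± 0.083 (adjusted p = 0.0380). Here 3 LPS arrays lay above all PBS arrays and the fourth among them. Icam1 read 10.56, 10.67, 10.69 and 10.27 in LPS, against 10.40, 10.50, 9.90 and 9.98 in PBS, a difference of 0.35 ± 0.11 (adjusted p = 0.0480). The same 3 LPS arrays lay above all PBS arrays. Tnf read 10.11, 10.11, 10.20 and 9.94 in LPS, against 9.84, 9.97, 9.56 and 9.61 in PBS, and its difference of 0.34 ± 0.12 missed the threshold (adjusted p = 0.0622). Nfkbia read 10.98, 11.02, 10.97 and 10.67 in LPS, against 10.84, 10.89, 10.33 and 10.44 in PBS, and also missed it at 0.28 ± 0.097 (adjusted p = 0.0577). Nfkbiz at 0.22, Tnfaip3 at 0.19 and Cxcl2 at 0.19 were further from it, with adjusted p of 0.103, 0.129 and 0.368.

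These 3 calls depended on single arrays. LPS array 4 was the lowest of its group for all 8 genes, and without it 7 members were called, all but Cxcl2. In that fit 1547 of 13512 genes were called. Without LPS array 1 or 2, or PBS array 3 or 4, none was called, without LPS array 3 only Cxcl1 was, and without both PBS arrays 3 and 4 none was and only 2 of 13512 genes passed. With those 2 arrays left out the LPS differences were 0.21 for Cxcl1, 0.17 for Csf1, 0.097 for Icam1 and -0.11 for Cxcl2. Mesothelial and fibroblast markers had a mean level of 6.69 to 6.99 in LPS arrays and 6.60 to 6.70 in PBS arrays. Of 18 such markers 13 were above background and 2, Msln and Col1a1, were called higher, neither of them without PBS arrays 3 and 4. Their summed linear signal ran from 1426 to 1782 in LPS and from 1354 to 1422 in PBS, and their part in the member differences was not tested. The mast cell marker Hdc, higher by 0.41 (adjusted p = 0.0490), and the T and NK cell marker Cd247, below the floor in all 4 PBS arrays (adjusted p = 0.0366), were called after LPS too, and likewise lost the call without PBS arrays 3 and 4.

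**Figure D2:**
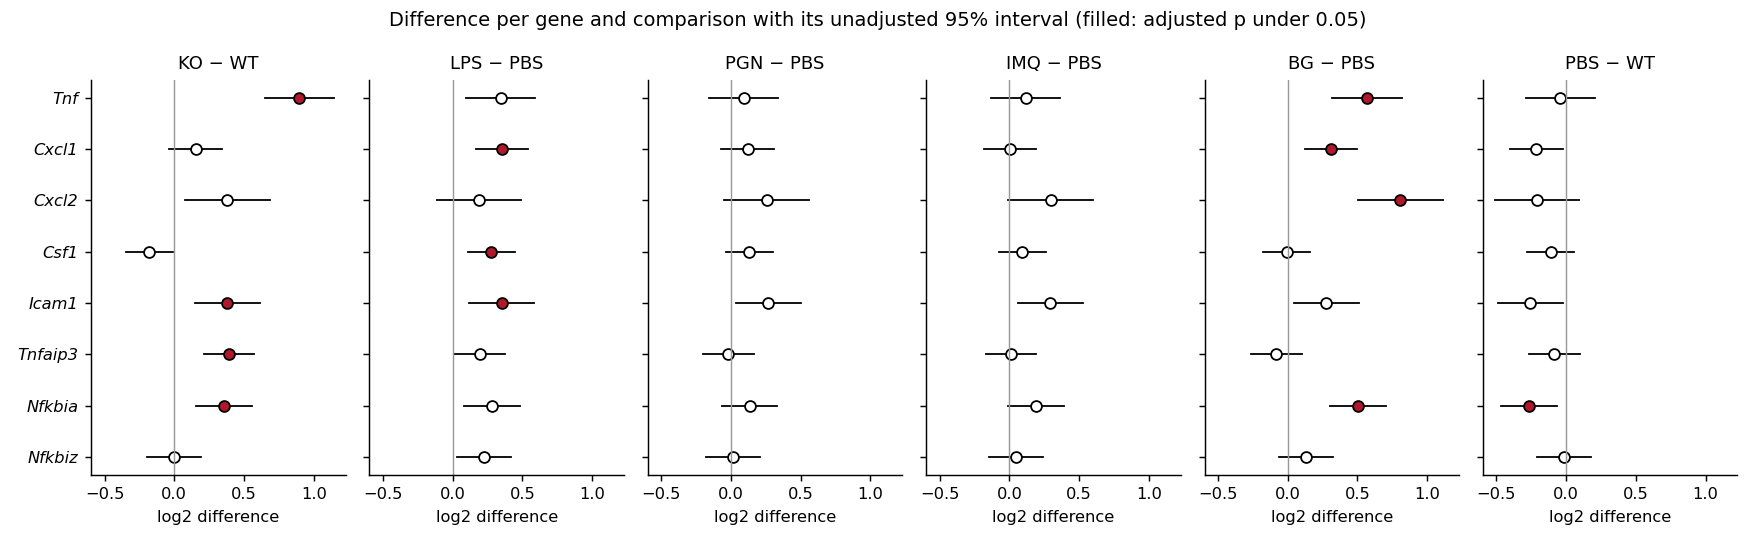
Log2 difference of each tested gene in KO minus WT, in each injection minus PBS and in PBS minus WT, with the unadjusted 95% interval as a line and filled points where the adjusted p was under 0.05. Tnf is highest in KO minus WT at 0.90, Cxcl2 in BG minus PBS at 0.81, and the PGN and IMQ points are all open.

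After PGN or imiquimod, none of the 8 was called by limma. Over all tested genes 3.91% were called after PGN and 5.69% after imiquimod, in either direction, so few calls were made anywhere. At an unadjusted p under 0.05 each comparison had 1 member, Icam1. It averaged 10.46 ± 0.083 in PGN and 10.49 ± 0.17 in IMQ, against 10.19 ± 0.30 in PBS, with adjusted p of 0.204 and 0.128. Tnf averaged 9.84 ± 0.23 in PGN and 9.86 ± 0.23 in IMQ, against 9.75 ± 0.19 in PBS. Cxcl2 averaged 10.30 ± 0.26 in PGN and 10.34 ± 0.15 in IMQ, against 10.04 ± 0.35 in PBS. Spread within groups was wide: PGN array 2 was the highest of its group for 6 of the 8 genes, IMQ array 1 was the highest for 7 and IMQ array 2 the lowest for 6.

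In PBS-injected mice set against uninjected WT mice, 1 member fell, Nfkbia. Over all tested genes 12.9% were lower. Nfkbia read 10.84, 10.89, 10.33 and 10.44 in PBS macrophages, against 10.91, 10.86, 10.86 and 10.92 in WT macrophages, a difference of -0.27 ± 0.097 (adjusted p = 0.0376). PBS array 2 lay among the WT arrays, PBS array 1 lay just below them, and the other 2 lay far below. Without PBS arrays 3 and 4 the difference was -0.026. All 8 differences were negative, with Icam1 at -0.26 (adjusted p = 0.0796) and Cxcl1 at -0.21 (adjusted p = 0.0731). Their median was -0.16, against 0.022 over all tested genes. The differences of Tnf, Cxcl2, Tnfaip3 and Nfkbiz were positive when PBS arrays 3 and 4 were left out. Marker lists moved with this comparison: 7 of 13 mesothelial and fibroblast markers were lower and 1 was higher, and 4 of 5 T and NK cell markers were lower. The summed linear signal of the mesothelial and fibroblast markers ran from 1354 to 1422 in PBS arrays and from 1414 to 1609 in WT arrays. Without PBS arrays 3 and 4, 2 of those 8 calls and 1 of those 4 remained, and their part in the Nfkbia difference was not tested. The comparisons of KO and of PBS share the WT arrays.

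The sizes of the effects were also compared directly, as differences between differences. The KO difference of Tnf exceeded its LPS difference by 0.55 (adjusted p = 0.0176), a test in which 29.3% of all genes passed. For Csf1 the KO difference minus the LPS difference was -0.45 (adjusted p = 0.00564), and of the 2 underlying differences the LPS one had passed. The KO difference of Tnfaip3 exceeded its BG difference by 0.47 (adjusted p = 0.00579), and 29.1% of all genes passed that test. With array weights the test for Tnf gave an adjusted p of 0.101, and that for Csf1 gave 0.129 with the B cell covariate and 0.0522 without PBS arrays 3 and 4. Set directly against each other, LPS macrophages had less Cxcl2 than BG macrophages, at 10.60, 10.20, 10.34 and 9.79 in LPS against 10.80, 10.91, 10.87 and 10.82 in BG. That difference was -0.62 ± 0.15 (adjusted p = 0.00171) with no overlap. LPS macrophages had more Csf1 than BG macrophages by 0.28 (adjusted p = 0.00823) and more Tnfaip3 by 0.27 (adjusted p = 0.0160), in a comparison where 34.9% of all genes were called. Tnfaip3 lost that call without LPS array 3, BG array 3 or BG array 4, with an adjusted p of up to 0.0722. LPS macrophages had more Cxcl1 than IMQ macrophages by 0.35 (adjusted p = 0.00969), with 19.2% of all genes called. None of the 8 was called between LPS and PGN by limma, where 12.1% of all genes were.

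Over the 7 groups, the mean of Tnf had the widest range, 0.94 or 1.92-fold, in the order KO, BG, LPS, IMQ, PGN, WT and PBS. Only the first step of that order passed the test, with KO above BG by 0.37 (adjusted p = 0.0187). Cxcl2 spanned 0.81 in the order BG, KO, IMQ, PGN, WT, LPS and PBS, and none of its neighbours differed at the threshold. Icam1 spanned 0.64 in the order KO, LPS, IMQ, BG, PGN, WT and PBS. Nfkbia spanned 0.62 in the order KO, BG, LPS, WT, IMQ, PGN and PBS. Tnfaip3 spanned 0.56 in the order KO, LPS, WT, IMQ, PBS, PGN and BG, and its first step, KO above LPS by 0.28, passed (adjusted p = 0.0155). Cxcl1 spanned 0.37 in the order KO, LPS, BG, WT, PGN, IMQ and PBS. Csf1 spanned 0.34 in the order LPS, PGN, WT, IMQ, PBS, BG and KO, so that KO stood last for it and first for 5 others. Nfkbiz spanned 0.22, with LPS highest and PBS lowest. In all, 2 of 48 neighbouring pairs were called. Of the 21 possible pairs of groups, 10 were called for Tnf, 9 for Nfkbia, 7 each for Cxcl1, Cxcl2 and Tnfaip3, 6 for Icam1, 3 for Csf1 and none for Nfkbiz. No matching count over all tested genes is set beside these counts of pairs, so they cannot be called high or low. The share of all tested genes called differed between pairs, for example 34.9% between LPS and BG and 12.1% between LPS and PGN.

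Within groups the 8 genes moved together from array to array. After each group mean was subtracted, all 28 gene pairs correlated positively over the 28 arrays, with Pearson's r of 0.30 for Cxcl1 and Tnfaip3 up to 0.92 for Icam1 and Nfkbia and a median of 0.61. The points share arrays and their quality, so this is a description without a p. Pairs of other genes were not correlated in this way, so the pattern cannot be called particular to these 8. The largest shared deviations were those of LPS array 4, at -0.25 on average over the 8 genes, of PBS array 2 at 0.22 and of PBS array 3 at -0.20.

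**Figure D3:**
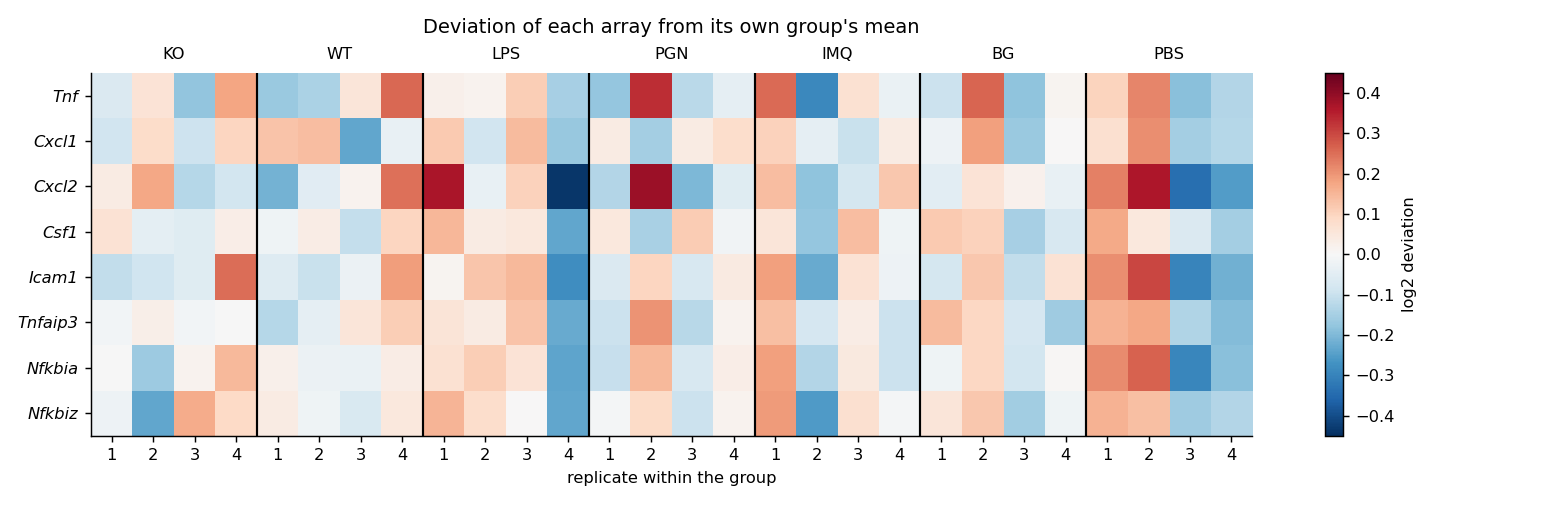
Deviation of each array (columns) from its own group mean on the log2 scale, for each tested gene (rows), as colour from low to high. LPS array 4 is low for all 8 genes, as are PBS arrays 3 and 4, while PBS arrays 1 and 2 are high.

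Other genes followed the group pattern of the members closely. Likeness was measured as the root mean square difference over the 7 group means after each gene was centred. For Tnf the 4 most alike genes of 13511 were Slamf8 at 0.075, Lrrc32 at 0.083, Tap1 at 0.085 and Parp12 at 0.090, against a median of 0.32 over all genes. For Cxcl2 they were Chst11 at 0.065, Timm8a1 at 0.073, Hspa9 at 0.074 and Ranbp1 at 0.079, against a median of 0.26. For Nfkbia they were Slfn2 at 0.036, H2-K2 at 0.039, Tap2 at 0.049 and Psmb9 at 0.053, against a median of 0.21. Tap1 and Tap2 encode the peptide transporter of MHC class I loading, and Psmb9 is an immunoproteasome subunit. Among the members, Nfkbia ranked 55 in likeness to Tnf and 68 in likeness to Cxcl2, while Csf1 ranked 10615 and 10608. The other members lay between these. They ranked from 193 (Cxcl2) to 5570 (Nfkbiz) in likeness to Tnf, and from 1414 (Tnf) to 8754 (Tnfaip3) in likeness to Cxcl2.

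The rest of the pathway was read from lists chosen by function. Their counts are to be read beside the shares over all tested genes. In KO 17.7% were higher and 10.7% lower, after β-glucan 20.2% and 21.4%, and after LPS 4.36% and 5.52%. After PGN 3.91% and after imiquimod 5.69% were called in either direction. In PBS against WT 12.9% were lower, and 4415 genes were called in either direction. Of the 4 other NF-kB subunits, all measured, Rel fell to 10.57 ± 0.075 in KO macrophages, against 10.69 ± 0.096 in WT macrophages (adjusted p = 0.0332), and no other passed there. In BG macrophages Rel fell to 10.45 ± 0.015, against 10.82 ± 0.062 in PBS macrophages (adjusted p = 1.81e-07), with no overlap. Relb, a partner in the noncanonical pathway, was called higher at 8.55 ± 0.049 in BG, against 8.33 ± 0.22 in PBS (adjusted p = 0.0405), but its difference was 0.044 with an adjusted p of 0.724 without PBS arrays 3 and 4, where Rel kept its call.

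Of 17 other IkB proteins and feedback inhibitors, 4 rose and none fell in KO, and the 4 were 23.5%, against 17.7% of all genes. The median difference was 0.092 against 0.005 over all genes. The 4 that rose included 2 further IkB genes: Nfkbib averaged 11.01 ± 0.044 in KO and 10.64 ± 0.097 in WT (adjusted p = 6.46e-06), and Nfkbie averaged 9.86 ± 0.068 in KO and 9.48 ± 0.14 in WT (adjusted p = 0.00555). Tnip3, an A20-binding inhibitor, rose by 0.37 (adjusted p = 0.000967). After β-glucan 5 of 17 rose and 2 fell, 29.4% and 11.8% against 20.2% and 21.4% over all genes. Tnip3 was up by 0.42 (adjusted p = 0.000183) and Tollip, an adaptor that dampens Toll-like receptor signals, by 0.26 (adjusted p = 2.62e-05). Without PBS arrays 3 and 4, 5 of these 7 calls remained, Tnip3, Tollip and Zfp36 among them. Zfp36, which destabilises Tnf messenger RNA, fell to 9.66 ± 0.052 in BG, 9.71 ± 0.15 in PGN and 9.71 ± 0.033 in IMQ, against 10.05 ± 0.087 in PBS. All 12 of those arrays lay below all PBS arrays, with adjusted p of 8.75e-05 in BG, 0.00668 in PGN and 0.00399 in IMQ, and it kept all 3 calls without those arrays. After LPS 0 of 17 was called.

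Of 27 genes for the IKK complex and the kinases and adaptors above it, 23 were measured, and Chuk, Ripk1, Traf3 and Irak4 were not analysed here. In KO 10 rose and 1 fell. Irak2, a kinase of Toll-like and IL-1 receptor signalling, averaged 10.12 ± 0.075 in KO and 9.50 ± 0.11 in WT (adjusted p = 6.24e-09). Rnf31, the catalytic subunit of the linear ubiquitin ligase, rose by 0.37 (adjusted p = 0.000142), and the kinase Tbk1 by 0.31 (adjusted p = 0.000222). After β-glucan 6 rose, 26.1% against 20.2% of all genes, among them Tbk1 by 0.26 (adjusted p = 0.00108). Of the 6, 4 remained called without PBS arrays 3 and 4, Tbk1 among them. After LPS 2 were called higher, Rnf31 by 0.22 (adjusted p = 0.0444) and its partner Rbck1 by 0.14 (adjusted p = 0.0482). Neither was called without PBS arrays 3 and 4 (adjusted p = 0.207 and 0.130) or without LPS array 2 (adjusted p = 0.132 and 0.131).

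Of 10 receptors for the members' products, 8 were measured, and the Cxcl1 and Cxcl2 receptor genes Cxcr1 and Cxcr2 were below the floor. In KO 2 rose and 2 fell. The TNF receptor Tnfrsf1b averaged 12.00 ± 0.096 in KO and 11.71 ± 0.075 in WT (adjusted p = 6.98e-05), Il6ra fell by 0.30 (adjusted p = 0.000562), and Itgam, a chain of an integrin that binds ICAM-1, fell by 0.25 (adjusted p = 0.00254). After β-glucan Tnfrsf1b rose by 0.14 (adjusted p = 0.0291), while Il6ra fell by 0.21 (adjusted p = 0.00723) and Il6st by 0.14 (adjusted p = 0.0341). Itgal, a chain of the ICAM-1 receptor LFA-1, rose by 0.47 in PGN (adjusted p = 0.0192) and by 0.56 in IMQ (adjusted p = 0.00405). Il6ra and Csf1r were also called higher in IMQ, by 0.23 and 0.14. Without PBS arrays 3 and 4 the 3 β-glucan calls and both calls of Itgal remained. The IMQ calls of Il6ra and Csf1r did not (adjusted p = 0.306 and 0.174).

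Of 34 other NF-kB target genes 28 were measured, and Cxcl5, Il23a, Il10, Csf2, Csf3 and Lif were below the floor. In KO 14 rose and 2 fell, with a median difference of 0.20. Gadd45b, a stress-response gene, rose by 0.73 (adjusted p = 4.10e-07), the chemokine Ccl4 by 0.72 (adjusted p = 4.10e-07) and the cytokine Il1a by 0.80 (adjusted p = 5.32e-05). The 2 that fell were Il1b, by 0.82 (adjusted p = 0.000435), and the scavenger receptor Olr1, by 0.80 (adjusted p = 0.000570), both named after their values were seen. After β-glucan 15 rose and 3 fell, with a median of 0.26. Gadd45b rose by 0.73 (adjusted p = 1.92e-07), and the monocyte chemokine Ccl2 averaged 10.66 ± 0.15 in BG and 9.24 ± 0.40 in PBS (adjusted p = 2.93e-06). Olr1 fell to 8.33 ± 0.25 in BG, against 9.60 ± 0.32 in PBS (adjusted p = 1.17e-06), and the others that fell were Il1b, by 1.16, and Cd83, by 0.43, with adjusted p of 4.24e-06 and 0.000623, Il1b and Cd83 being named after their values were seen. Without PBS arrays 3 and 4, 13 of these 18 calls remained, the 5 genes named here among them. After LPS 4 were called higher: Nos2 averaged 8.11 ± 0.39 in LPS and 6.84 ± 0.51 in PBS (adjusted p = 0.0201), Cd40 was higher by 0.34 (adjusted p = 0.0380), Slc2a6 by 0.29 (adjusted p = 0.0422) and Ccl5, named after its value was seen, by 0.40 (adjusted p = 0.0440). None of the 4 was called without PBS arrays 3 and 4, where Nos2 had a difference of 0.94 and an adjusted p of 0.165, or without LPS array 2, where the smallest adjusted p was again that of Nos2, 0.0881. After PGN the 1 called was Ccl3, higher by 0.26 (adjusted p = 0.0201), and after imiquimod it was Cd40, higher by 0.44 (adjusted p = 0.00933). Both lost the call without PBS arrays 3 and 4 (adjusted p = 0.184 for Ccl3 and 0.249 for Cd40). In PBS against WT 2 rose and 3 fell, and the 3 were 10.7%, against 12.9% of all genes. Among them Tnfaip2 was down to 11.30 ± 0.12 in PBS against 11.59 ± 0.076 in WT (adjusted p = 0.000970). Of these 5 calls 2 remained without PBS arrays 3 and 4, but not that of Tnfaip2 (adjusted p = 0.0514).

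Of 14 immediate-early genes, which answer any stimulus within minutes, 5 rose and 4 fell in KO. Btg2, an antiproliferative gene, fell by 0.41 (adjusted p = 2.43e-07), while the transcription factors Egr2 and Egr1 rose by 0.67 (adjusted p = 3.80e-05) and 0.28 (adjusted p = 0.000714). After β-glucan 4 rose and 2 fell, 28.6% and 14.3% against 20.2% and 21.4% over all genes. Nr4a1 was down by 0.92 (adjusted p = 1.40e-06) and Myc up by 0.59 (adjusted p = 0.000826), and all 6 calls remained without PBS arrays 3 and 4. After LPS the 1 called was Fosb (adjusted p = 0.0287), which has no reliable size because 3 of the 4 PBS arrays lay below the floor, and it was not called without PBS arrays 3 and 4 (adjusted p = 0.101). Markers of the macrophages themselves moved as well: of 17 measured, 3 rose and 7 fell in KO, and 8 fell after β-glucan, all 8 also without PBS arrays 3 and 4. Gata6, the transcription factor that defines large peritoneal macrophages, averaged 8.97 ± 0.23 in KO and 10.48 ± 0.27 in WT (adjusted p = 8.58e-10), and 9.41 ± 0.13 in BG and 10.35 ± 0.23 in PBS (adjusted p = 7.84e-07). Of 11 measured markers of dendritic cells and monocyte-derived macrophages, 1 rose and 5 fell in KO, and 4 rose and 3 fell after β-glucan, where 4 of the 7 calls remained without PBS arrays 3 and 4. Few markers of T and NK cells (5 of 16), mast cells (2 of 9) and eosinophils (2 of 7) were above background. After β-glucan none of the T and NK cell or eosinophil markers was called by limma, and the mast cell marker Hdc was called lower by 0.36 (adjusted p = 0.0320), though not without PBS arrays 3 and 4 (adjusted p = 0.0682). The neutrophil marker Csf3r fell by 0.24 there (adjusted p = 0.0144). Of the 13 mesothelial and fibroblast markers, 2 were called higher and 1 lower after β-glucan, and 1 of these 3 calls, the lower one of Dcn, remained without those arrays.

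**Figure D4:**
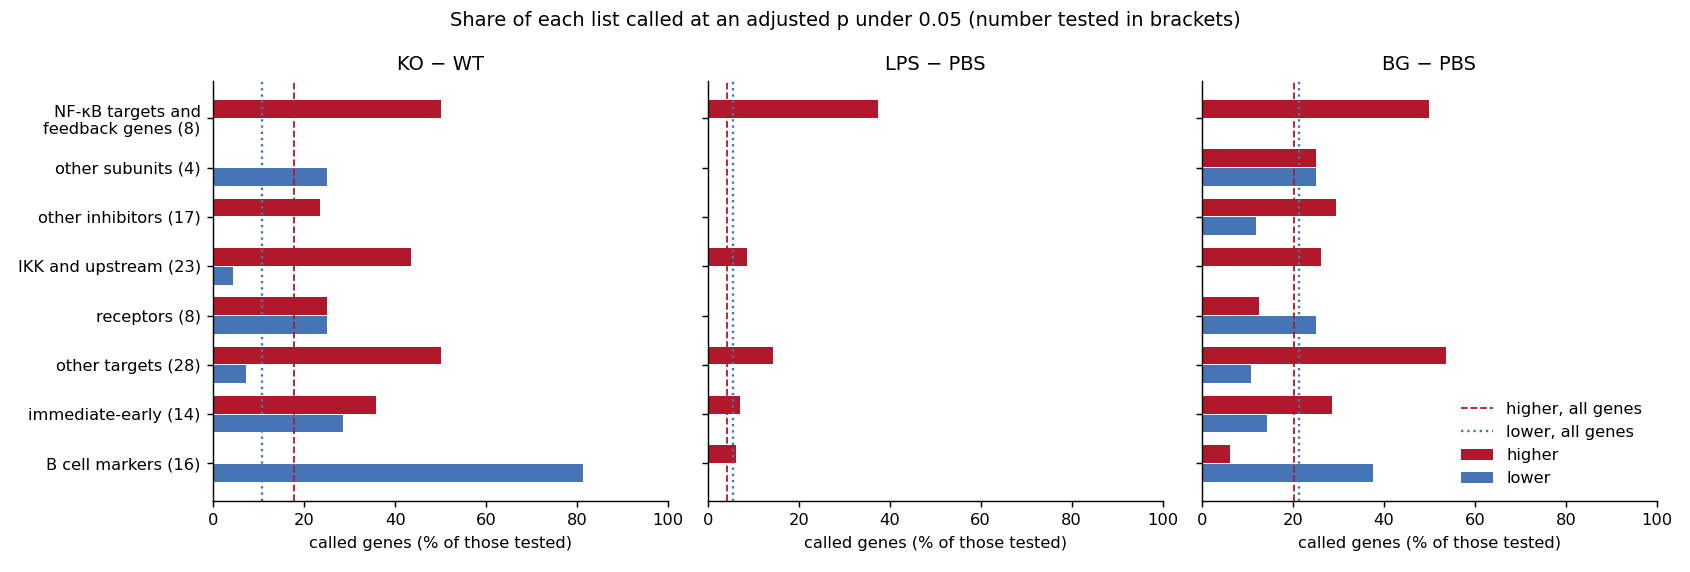
Percentage of the measured genes of each list (rows, number measured in brackets) called higher (red bars) or lower (blue bars) in KO minus WT, LPS minus PBS and BG minus PBS, with dashed red and dotted blue lines for the same percentages over all 13512 tested genes. Other NF-kB targets were called higher for 14 of 28 in KO and 15 of 28 after β-glucan, and B cell markers lower for 13 of 16 in KO.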

How the data were processed

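The deposited values are linear intensities that the authors produced with RMA in Affymetrix Expression Console, per the submitters' processing notes; its version is not given in the sources used here. RMA corrects background, normalises quantiles between arrays and summarises probes. The log2 was taken here. Of 35556 probe sets, 21789 carry 1 gene symbol in the platform table, 1621 several and 12146 none. A probe set was kept if 4 or more of the 28 arrays exceeded the floor, and the brightest per gene was used. All arrays entered 1 linear model of group means in limma 3.58.1 in R 4.3.3 (empirical Bayes with an intensity trend), and p-values were adjusted by Benjamini-Hochberg over 13512 genes within each comparison. Genes under 0.05 were called. Precision is limited by 4 arrays a group. On data simulated for LPS against PBS with 13512 genes, 95% of shifts of 0.5 were recovered. The simulated noise was independent between genes and arrays, without the shared array deviations seen in the real arrays. The members' LPS differences, at 0.19 to 0.35, were also smaller than that shift, so the 95% does not apply to them.

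The members and gene lists were chosen with earlier results of these data known. Named genes are the members, Atf7, up to 3 called genes per list and comparison with the smallest p, and the 4 genes most alike to Tnf, Cxcl2 and Nfkbia. Genes completing a count of 5 or fewer (Il1b, Olr1, Cd83, Ccl5) were named after their values were seen. Replicate numbers were checked for pairing: 26 of 84 same-numbered pairs of arrays correlated above 0.1 in their deviations (-0.52 to 0.48). Of 21 pairs of groups, WT and LPS alone had all 4 above it (0.17 to 0.48), and no group and its control did, so numbers were not treated as pairs. Alternatives covered filters, normalisation, variance settings, array weights, a B cell covariate, a replicate block, single arrays left out and, chosen after seeing the data, PBS arrays 3 and 4 left out together. Promoter motifs were searched on both strands.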

Additional observations from a re-analysis of the deposited data

Results flagged for a closer look

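In 2 of 63 gene and group combinations tested, 1 array lay far from the other 3, where chance gives about 1 in 20. Icam1 in KO array 4 read 11.09, against 10.78 for the nearest KO array, a gap of 0.842 of the group's range. Nfkbia in LPS array 4 read 10.67, against 10.97 for the nearest LPS array, a gap of 0.853 of the range.

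Effects differed between groups for 7 tests of the difference itself (limma, adjusted over all genes). For the KO difference minus the LPS difference 2 of the 8 members passed, against 29.3% of all genes. For the KO difference minus the BG difference it was 1 of 8, against 29.1%. Between LPS and BG it was 3 of 8 against 34.9%, between LPS and IMQ 1 of 8 against 19.2%, and between LPS and PGN 0 of 8 against 12.1%. The KO difference minus the LPS difference was 0.55 for Tnf (adjusted p = 0.0176) and -0.45 for Csf1 (adjusted p = 0.00564). The KO difference minus the BG difference was 0.47 for Tnfaip3 (adjusted p = 0.00579). Between LPS and BG macrophages Cxcl2 differed by -0.62 (adjusted p = 0.00171), Csf1 by 0.28 (adjusted p = 0.00823) and Tnfaip3 by 0.27 (adjusted p = 0.0160). Between LPS and IMQ macrophages Cxcl1 differed by 0.35 (adjusted p = 0.00969).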

How the results depend on the processing

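In KO against WT and BG against PBS the number of members called stayed within 1.5 times of 4 under all alternatives run, at 3 to 5 and 4 to 5 with single arrays left out. A stable number does not mean the same members. Without PBS arrays 3 and 4 the 4 called in BG were 3 higher and 1 lower, with Cxcl1 lost and Tnfaip3 called lower. The fit with the replicate block, in which same-numbered arrays deviated together in all 4 pairs for WT and LPS but in no other pair of groups, called 4 members in KO, 4 in BG and 2 in LPS, where Icam1 lost its call (adjusted p = 0.0539). For the KO difference minus the LPS difference, which rests on WT and LPS arrays, it kept 2 members, Tnf (adjusted p = 0.0204) and Csf1 (adjusted p = 0.00440). The number called in LPS against PBS was 6 with array weights, 0 with only the groups of the comparison, 0 without PBS arrays 3 and 4, and 0 to 7 with single arrays left out. It was 1 with array weights, and 0 to 1 with single arrays left out, in IMQ against PBS. In PBS against WT it was 0 with arrays centred on their medians, with only the groups of the comparison and without PBS arrays 3 and 4, and 0 to 3 with single arrays left out (0 without WT 1, 2 or 4 or PBS 3 or 4, 2 without WT 3 or PBS 1, 3 without PBS 2). For the KO difference minus the LPS difference it was 1 with array weights, 1 with the B cell covariate and 2 without PBS arrays 3 and 4, where Csf1 was not among the 2. For the KO difference minus the BG difference it was 1 to 2 with single arrays left out (2 without PBS 2). Between LPS and PGN it was 1 after a further quantile normalisation, 4 with array weights and 0 to 3 with single arrays left out (3 without LPS 4), and between LPS and IMQ 2 with array weights and 1 to 3 (3 without LPS 4). Neighbouring groups in the order of levels differed in 5 pairs with only the 2 groups in the fit, 4 without PBS arrays 3 and 4 and 1 to 4 with single arrays left out (1 without KO 4, LPS 4, BG 1 or BG 3, 4 without PBS 1 or PBS 2).

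Genes called in KO against WT numbered 3830, and 1304 with the B cell covariate and 2409 with only the 2 groups. In LPS against PBS they numbered 1335, and 820 with a stricter filter, 863 after quantile normalisation, 2018 with array weights, 508 with only the 2 groups, 2 without PBS arrays 3 and 4 and 4 to 1558 with single arrays left out (596 without LPS 1, 4 without LPS 2, 849 without PBS 2, 172 without PBS 3 and 440 without PBS 4). In PGN against PBS they numbered 528, and 1419 with array weights, 272 with only the 2 groups, 307 without PBS arrays 3 and 4 and 283 to 483 with single arrays left out. In IMQ against PBS they numbered 769, and 1699 with array weights, 459 with the B cell covariate, 310 without PBS arrays 3 and 4 and 400 to 758 with single arrays left out. In PBS against WT they numbered 4415, and 2728 with array weights, 2066 with only the 2 groups, 2189 without PBS arrays 3 and 4 and 2752 to 5306 with single arrays left out.

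Differences that changed sign were all uncalled ones. Nfkbiz in KO was 0.050 with centred arrays, 0.0026 with array weights, 0.13 with the B cell covariate and -0.058 to 0.075 with single arrays left out. Csf1 in BG was 0.044 with the B cell covariate and -0.059 to 0.049 with single arrays left out. Cxcl1 in IMQ was -0.0053 with centred arrays, -0.0053 after quantile normalisation, -0.043 with the B cell covariate and -0.048 to 0.074 with single arrays left out. Tnf in PBS against WT was 0.012 and Nfkbiz 0.039 with centred arrays, and -0.11 to 0.045 and -0.066 to 0.040 with single arrays left out. With single arrays left out Tnf in PGN ran from -0.020 to 0.16, Tnfaip3 in PGN from -0.086 to 0.040, Nfkbiz in PGN from -0.038 to 0.068, Tnfaip3 in IMQ from -0.052 to 0.071 and Nfkbiz in IMQ from -0.014 to 0.14. Without PBS arrays 3 and 4 the LPS difference of Cxcl2 was -0.11 and the BG difference of Nfkbiz -0.013. The PGN differences there were -0.068 for Tnf, -0.023 for Cxcl1, -0.039 for Cxcl2, -0.11 for Nfkbia and -0.13 for Nfkbiz. The IMQ differences there were -0.043 for Tnf, -0.14 for Cxcl1, -0.017 for Csf1, -0.15 for Tnfaip3, -0.050 for Nfkbia and -0.096 for Nfkbiz. The PBS minus WT differences there were 0.12 for Tnf, 0.085 for Cxcl2, 0.082 for Tnfaip3 and 0.13 for Nfkbiz. The cause of these changes was not tested.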
